A study of Mus musculus with 12 samples.

Results

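The comparison described here set 3 libraries of mouse macrophages given PgLPS against 3 libraries of control macrophages, 6 of the 12 libraries in the series. Its members were chosen by the labelled treatment. The cells of both groups were primary macrophages grown from wild-type bone marrow. The other 6 libraries came from cells given CS-PA/CNP, alone or with PgLPS. The labels expand neither abbreviation, and they state no dose, time, strain, age or sex. The columns lettered C and L in the deposited table were read as control and PgLPS. No label says that the libraries of a group came from separate mice or cultures, so the p-values speak only to the scatter among these libraries, and that scatter may be technical. Of 21899 genes in the table, 11656 had enough reads to be tested. The account below turns on 64 classes of genes other than cytokines, chemokines and interferon-stimulated genes, which were put in a list of 258 genes and set aside.

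Macrophages are phagocytes that can be grown from marrow precursors with a growth factor, and such cultures still divide. Microbial products are sensed through pattern recognition receptors, whose signals reach transcription factors of the NF-kappaB, AP-1 and interferon regulatory families. Besides inflammatory mediators, this programme is known to touch surface receptors, lipid and nucleotide metabolism, iron handling and the cell cycle.

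The control libraries held 15570148 to 17339556 reads and the PgLPS libraries 14992707 to 19252143. Macrophage markers were high in both groups, with summed levels of 19985 to 21390 CPM (counts relative to library size, scaled by the TMM method of edgeR) in control and 29272 to 31670 CPM with PgLPS. Most of this sum was Lyz2, at a mean of 15395 CPM in control and 17563 CPM with PgLPS. Of the 8 markers, 4 rose and 0 fell at least 2-fold, and Cd68 was lower by a smaller amount (-0.32 on the log2 scale). Markers of B cells, T and NK cells, dendritic cells, red cells and mast cells each summed to at most 6.04 CPM in any library, with Cd3d, Hbb-bt and Hba-a2 at 0 reads. In these lists Lck (1.84), Xcr1 (3.24) and Mcpt8 (1.12) were at least 2-fold higher, and 0 markers were lower by as much. The dendritic cell markers summed to 0.905 to 1.45 CPM in control and 2.53 to 5.18 CPM with PgLPS. Neutrophil markers summed to 121 to 146 CPM in control and 200 to 226 CPM with PgLPS, endothelial markers to 68.8 to 75.4 and 55.3 to 55.9 CPM, and megakaryocyte markers to 5.5 to 6.71 and 13.1 to 17.7 CPM. The lower endothelial sum came from Vwf, at a mean of 67 CPM in control and 42 CPM with PgLPS (-0.67 on the log2 scale). The less abundant Cdh5 (2.12), Pecam1 (1.44) and Kdr (0.76) rose. Stromal markers are given beside the matrix genes. Reads come from whole cultures, so a change in the number of cells of a type and a change in RNA per cell cannot be told apart.

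PgLPS moved a large part of the transcriptome in both directions. By the quasi-likelihood test of edgeR at a Benjamini-Hochberg (BH) adjusted p below 0.05, 3750 genes rose, which was 32.2% of those tested, 3683 fell (31.6%), and 4223 did not pass. At least 2-fold changes were called for 1372 rises, or 11.8%, and 1468 falls, or 12.6%. These last 2 shares are the background for every class below. The levels of the 3 PgLPS libraries did not overlap those of the control libraries for 7740 genes (66.4%). The split of calls depended on the scaling. With library totals in place of TMM factors, the median of all genes moved from -0.00 to -0.42 on the log2 scale, and 1945 genes rose while 6963 fell, so that rises made up 21.8% of calls and not 50.5%. Under that scaling 297 genes were called in the opposite direction, all of them among changes of less than 2-fold.

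The make-up of the reads differed between the groups. Genes at least 2-fold higher held 10.3% ± 0.098 (SD, n = 3) of control reads and 33.8% ± 0.25 of PgLPS reads, while genes at least 2-fold lower went from 8.40% ± 0.11 to 2.09% ± 0.027. The set aside list of 258 cytokines, chemokines and interferon-stimulated genes accounted for only part of this, at 0.668% ± 0.0072 and 5.44% ± 0.078. The 1222 risers outside that list held 9.79% ± 0.11 of control reads and 28.5% ± 0.24 with PgLPS. Fth1, the heavy chain of the iron store ferritin, alone held 1.88% ± 0.11 and 3.91% ± 0.32 of reads. Saa3, an acute-phase serum amyloid A, went from 0.000122% ± 5.5e-05 to 1.13% ± 0.19. These genes were ranked by the same contrast, so the shares describe its size and are not a test.

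**Figure D1:**
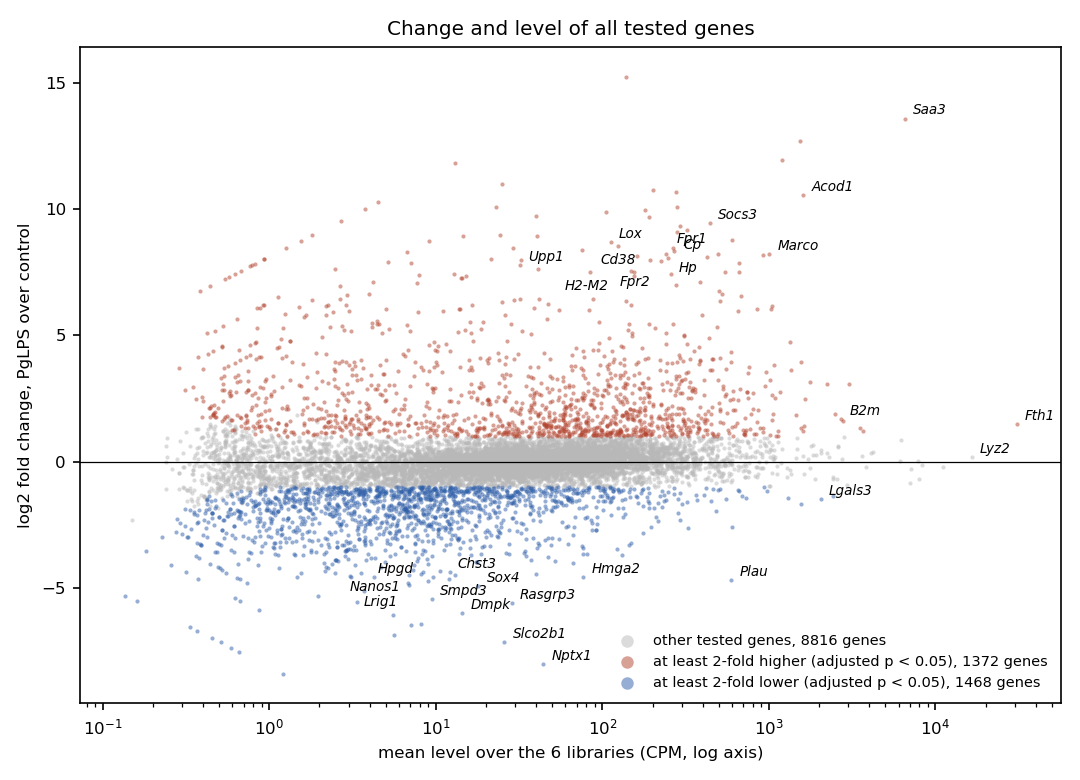
Each point is 1 of the tested genes, with its mean level over the 6 libraries in CPM on a log axis and its log2 fold change, PgLPS over control. The 1372 genes at least 2-fold higher are red and the 1468 at least 2-fold lower are blue. Labels mark genes named in the text, from Saa3 at 13.59 to Nptx1 at -8.01. Cytokines, chemokines, interferon-stimulated genes and genes with under 10 reads summed in the lower group are drawn without labels.

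Outside the set aside list, and among genes that reached 5 CPM in their higher group and 10 summed reads in the other, the steepest rises included genes of acute-phase proteins, a bacterial scavenger receptor and the itaconate enzyme. Saa3 read 0.524, 1.21 and 1.45 CPM in the control libraries and 10891, 15561 and 12945 CPM with PgLPS, a log2 change of 13.59 (SE 0.44, edgeR BH-adjusted p = 2.0e-15). Acod1, which makes itaconate in mitochondria, read 1.15, 2.51 and 2.74 CPM against 3277, 3222 and 3135 CPM (10.55, SE 0.15, edgeR BH-adjusted p = 1.3e-20). The groups lay far apart for both genes. Apart from nuclear receptors, clock genes and genes switched on or off, a gene was named by rule only if its libraries did not overlap between groups. Lack of overlap in such a gene was therefore set in advance. Marco, a scavenger receptor for bacteria, went from 6.08, 6.79 and 7.16 CPM to 1729, 2154 and 2105 CPM (8.22, SE 0.11). Further acute-phase proteins rose with them. Ceruloplasmin (Cp), a copper-carrying ferroxidase, read 1.62, 1.51 and 1.85 CPM in control and 568, 514 and 517 CPM with PgLPS. Haptoglobin (Hp), which binds free haemoglobin, read 2.1, 1.71 and 1.68 CPM and then 465, 543 and 473 CPM. In both genes the lowest PgLPS library was far above the highest control library.

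Receptors for formylated peptides, which guide phagocytes toward bacteria, also appeared among the steepest rises. Fpr1 read 1.83, 1.36 and 1.57 CPM in control and 497, 454 and 496 CPM with PgLPS (8.24, SE 0.13), and Fpr2 read 1.57, 2.01 and 1.79 CPM and then 467, 446 and 429 CPM (7.96, SE 0.11). Cd38, an enzyme that consumes NAD, went from 2.15, 1.26 and 1.12 CPM to 425, 336 and 396 CPM. The feedback inhibitor of cytokine receptors Socs3 rose by 9.45 (SE 0.13), the collagen cross-linking enzyme Lox by 8.71 (SE 0.15) and the non-classical class I gene H2-M2 by 7.55 (SE 0.15). The uridine phosphorylase Upp1, a nucleoside-splitting enzyme, rose by 7.78 (SE 0.19). Adjusted p by edgeR lay between 3.5e-21 and 1.3e-18 for the rising genes named here and just above, other than Saa3 and Upp1 (2.7e-17). Fpr1, Fpr2 and Hp are also known from neutrophils, whose markers summed to 121 to 146 CPM in control and 200 to 226 CPM with PgLPS, with S100a8 (1.37) and Camp (1.11) at least 2-fold higher, S100a9 higher by 0.77, and Ngp (0.12), Prtn3 (0.28) and Mpo (-0.63) not called. The part of such cells in these rises was not tested.

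The steepest falls were of less abundant transcripts and of one very abundant one. Nptx1, a secreted pentraxin, read 88.5, 96.5 and 77.8 CPM in control and 0.457, 0.13 and 0.42 CPM with PgLPS (-8.01, SE 0.21, edgeR BH-adjusted p = 7.5e-17). Slco2b1, an organic anion transporter, read 53.7, 52.9 and 47.1 CPM and then 0.457, 0 and 0.6 CPM (-7.15, SE 0.27). Its estimate moved to -7.88 without PgLPS library 3 and -6.56 without PgLPS library 2. Plau, the urokinase plasminogen activator, was the abundant one, at 1139, 1117 and 1160 CPM in control and 42.8, 44.6 and 45 CPM with PgLPS (-4.69, SE 0.06). Rasgrp3, an activator of Ras and Rap, read 59, 55.9 and 53.1 CPM against 0.839, 1.1 and 1.44 CPM (-5.60, SE 0.14). Hmga2, an architectural chromatin protein, read 155, 147 and 140 CPM against 4.65, 7.34 and 6.24 CPM (-4.58, SE 0.12). No control library overlapped a PgLPS library in these genes, as the naming rule required. The kinase Dmpk (-5.98), the neutral sphingomyelinase Smpd3 (-5.43), the transcription factor Sox4 (-4.94), the receptor inhibitor Lrig1 (-4.90), the RNA-binding Nanos1 (-4.80), the prostaglandin dehydrogenase Hpgd (-4.74) and the chondroitin sulfotransferase Chst3 (-4.63) fell as well. Hpgd read 0.305, 0.39 and 1.14 CPM with PgLPS, and its change was -5.59 without PgLPS library 3.

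**Figure D2:**
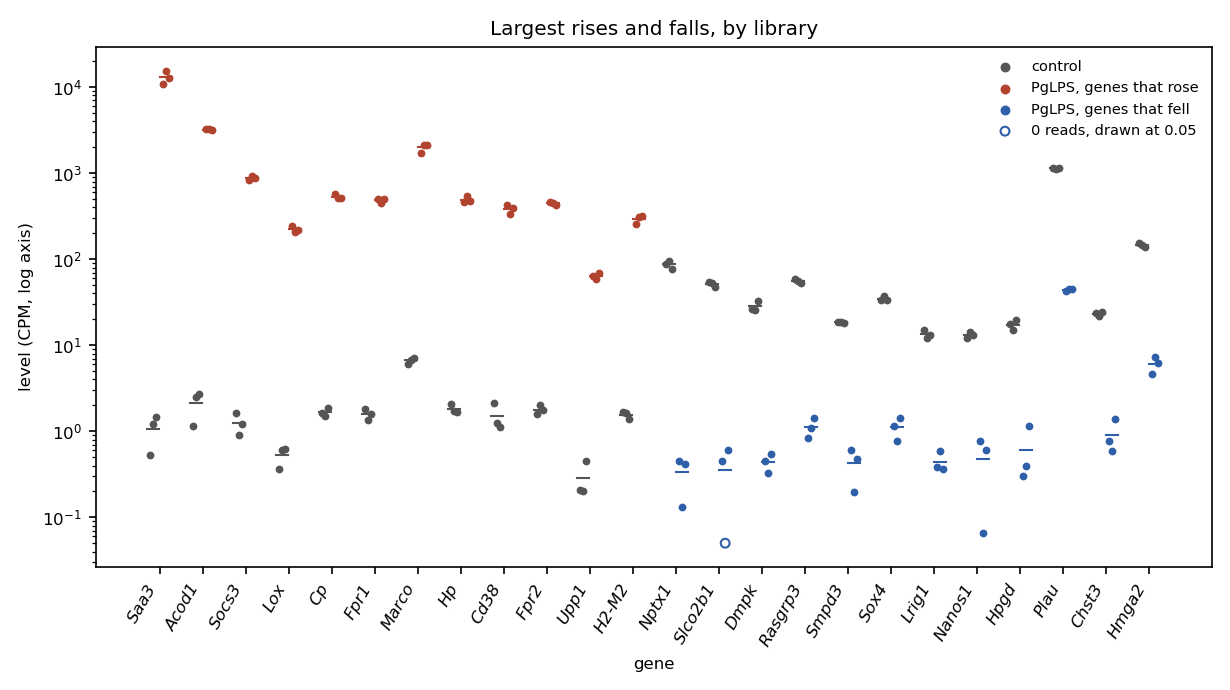
Level in CPM on a log axis for the 12 largest log2 rises and the 12 largest log2 falls that met the naming rule, 1 point per library and a bar at the group mean. Control libraries are grey, and PgLPS libraries are red for genes that rose and blue for genes that fell. The naming rule required that the 2 groups do not overlap. Slco2b1 had 0 reads in 1 PgLPS library, drawn as an open point.

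Some genes crossed from near silence to clear expression or the reverse. A gene was counted as off when every library of a group was below 0.2 CPM and as on when every library was at or above 5 CPM. By this rule 15 genes were off in control and on with PgLPS, of which 7 were on the set aside list, and 3 were on in control and off with PgLPS. These counts depend on the limits, and were 54 and 12 with on at 1 CPM and 39 and 10 with off at 0.5 CPM. Serpinb2, the plasminogen activator inhibitor known as PAI-2, had 0 reads in every control library and 3842, 3309 and 5461 reads with PgLPS, at least 5290-fold higher against a floor of 3 reads over the control group. Itgb8, an integrin chain that activates latent TGF-beta, had 0 control reads and 391, 305 and 475 reads, at least 491-fold higher. Edn1, the vasoconstrictor endothelin, had 0 control reads and 88, 136 and 114 reads, at least 142-fold higher. The inducible nitric oxide synthase Nos2 had 3, 0 and 0 reads in control and 206, 199 and 228 with PgLPS, a ratio of 266 with a 95% counting interval of 90.4 to 1291. The pantetheinase Vnn3 gave a ratio of 383 (105 to 3166), the endothelial lipase Lipg 158 (53.6 to 768), the synapse adhesion protein Lrrc4 144 (65.8 to 393) and Shisa3, an inhibitor of Wnt and FGF receptors, 110 (42.6 to 406).

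In the other direction, Klhl3, a substrate adaptor of a cullin ubiquitin ligase, had 208, 245 and 187 reads in control and 0, 2 and 2 with PgLPS. Its ratio of control to PgLPS was 127 with a counting interval of 49.4 to 468. Tox2, an HMG-box transcription factor, had 271, 327 and 211 reads and then 2, 3 and 2 (91.8, 44.4 to 229). Shisa9, an AMPA receptor auxiliary protein, had 120, 132 and 121 reads and then 2, 2 and 2 (49.4, 22.5 to 135). Intervals and floors cover counting error only, since PCR copies cannot be told from separate molecules.

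Ranked by change in abundance per kilobase, the rises included very abundant transcripts beside Saa3, which went from 0.407 to 5039 RPKM, and Acod1, which went from 0.814 to 1224 RPKM. Fth1 went from 4694 to 13050 RPKM (mean of 3 libraries, CPM per kilobase of the deposited gene length) and rose by 1.48 on the log2 scale (SE 0.07, edgeR BH-adjusted p = 4.3e-13). Its 3 control libraries read 15068, 17056 and 16731 CPM and its PgLPS libraries 41035, 49494 and 45285 CPM. B2m, the light chain of class I molecules, went from 1483 to 4808 RPKM (1.70, SE 0.06). Haem oxygenase Hmox1, which frees iron from haem, went from 786 to 2375 RPKM (1.60, SE 0.07), beta-actin (Actb) from 1651 to 2980 RPKM (0.85, SE 0.06) and Wfdc17, a small secreted protein, from 58.6 to 1368 RPKM (4.54, SE 0.12). Lysozyme (Lyz2), the most abundant of these in control at 11699 RPKM, read 13345 RPKM with PgLPS, a log2 change of 0.19 (SE 0.05) that became -0.22 with library totals.

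The falls in abundance were led by Lgals3, Spp1 and genes of the lysosome and of lipid uptake. Galectin-3 (Lgals3) read 2708, 3262 and 3103 CPM in control and 939, 1212 and 1069 CPM with PgLPS, from 1628 to 578 RPKM (-1.49, SE 0.09, edgeR BH-adjusted p = 2.1e-11). Osteopontin (Spp1) went from 1154 to 422 RPKM (-1.45, SE 0.08). Falls of less than 2-fold were called for Gpnmb, a glycoprotein of lysosome-rich macrophages (1388 to 778 RPKM, -0.84), the fatty acid and oxidized lipid receptor Cd36 (1071 to 568 RPKM, -0.91), the protease cathepsin D, Ctsd (1346 to 835 RPKM, -0.69), the saposin precursor Psap (2844 to 2331 RPKM, -0.29) and the mitochondrially encoded mt-Cytb (1664 to 1191 RPKM, -0.48). The libraries did not overlap in any of them, as the naming rule required.

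To show the DNA in front of genes from both directions, promoter windows of 250 bases before the start site were read from RefSeq on GRCm38.p6, where 9403 of the 11656 tested genes had an entry. The sequences are printed 5′ to 3′ on the strand of the gene, in lower case with motif letters in capitals. Marco and B2m are single examples of receptor and antigen-presentation genes that rose, Upp1 of nucleoside breakdown and Rrm2 of DNA synthesis genes that fell.
Marco, chr1:120505025-120505274, minus strand, kappaB motif: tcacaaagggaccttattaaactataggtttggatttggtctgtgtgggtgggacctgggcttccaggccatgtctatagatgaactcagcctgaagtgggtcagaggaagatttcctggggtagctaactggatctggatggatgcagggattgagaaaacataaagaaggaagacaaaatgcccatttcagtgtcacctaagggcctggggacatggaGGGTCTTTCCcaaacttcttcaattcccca
B2m, chr2:122147437-122147686, plus strand, interferon response, kappaB and CCAAT motifs in this order: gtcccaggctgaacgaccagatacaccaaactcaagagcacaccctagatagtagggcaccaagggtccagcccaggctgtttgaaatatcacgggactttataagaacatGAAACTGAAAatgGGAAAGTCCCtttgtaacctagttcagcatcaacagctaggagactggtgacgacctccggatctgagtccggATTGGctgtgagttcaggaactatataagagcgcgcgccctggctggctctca
Upp1, first of 3 listed starts, chr11:9117758-9118007, plus strand, AP-1 motif: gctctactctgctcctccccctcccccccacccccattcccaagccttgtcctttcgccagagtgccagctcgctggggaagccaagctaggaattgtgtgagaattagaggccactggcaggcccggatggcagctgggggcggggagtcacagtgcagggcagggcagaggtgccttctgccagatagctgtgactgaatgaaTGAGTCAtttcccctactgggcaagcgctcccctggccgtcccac
Rrm2, chr12:24708004-24708253, plus strand, CCAAT motif: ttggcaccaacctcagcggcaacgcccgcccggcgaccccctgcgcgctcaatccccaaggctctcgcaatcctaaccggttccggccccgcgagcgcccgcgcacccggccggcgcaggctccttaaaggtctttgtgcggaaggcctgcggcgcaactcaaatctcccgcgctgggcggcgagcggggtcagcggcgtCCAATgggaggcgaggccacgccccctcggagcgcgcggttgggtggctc

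The motifs in capitals, searched on both strands, are kappaB (GGG and TTTCC with 2 free bases between), interferon response (GAAA and GAAA with 2 free bases between), AP-1 (TGANTCA) and CCAAT. E2F (TTTNGCGC) and E-box (CACGTG) letters were searched as well. A gene was counted when any of its listed windows held the letters, so genes with more listed starts could match more often. Among all 9403 matched genes, kappaB letters occurred in 1.86%, interferon response letters in 3.46% and AP-1 letters in 5.54%. CCAAT occurred in 40.8%, E2F letters in 2.4% and E-box letters in 10%. Among the 983 matched genes of the 1222 risers outside the set aside list the shares were 3.05%, 6.21%, 9.16%, 37%, 1.22% and 8.44% in the same order. The kappaB letters of Marco lie 30 bases before the start and those of B2m 126 bases before it. Other steep risers differed. The Saa3 window held interferon response letters only, and the windows of Acod1, Fpr1, Fpr2 and H2-M2 held CCAAT only. The windows of Socs3 and Cd38, and the last of the 3 listed Upp1 windows, held none of the motifs. A match describes letters and is not evidence of binding. For genes at least 2-fold lower, under 80% had a window, and no share is given.

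Across the 64 classes, 26 stood far enough from the background to be described, either because a share of 2-fold calls was at least 2 times the background among 10 or more tested members, or because both shares were at most 0.25 times it among 20 or more. The classes overlap in a few genes, were built from gene symbols, and carry no test of their own. Members named in a class had to meet the same read and overlap limits as above, so they are not always its largest changes. Ion channels, for example, ranged from -5.88 to 5.72 on the log2 scale and axon guidance genes from -7.52 to 6.95.

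**Figure D3:**
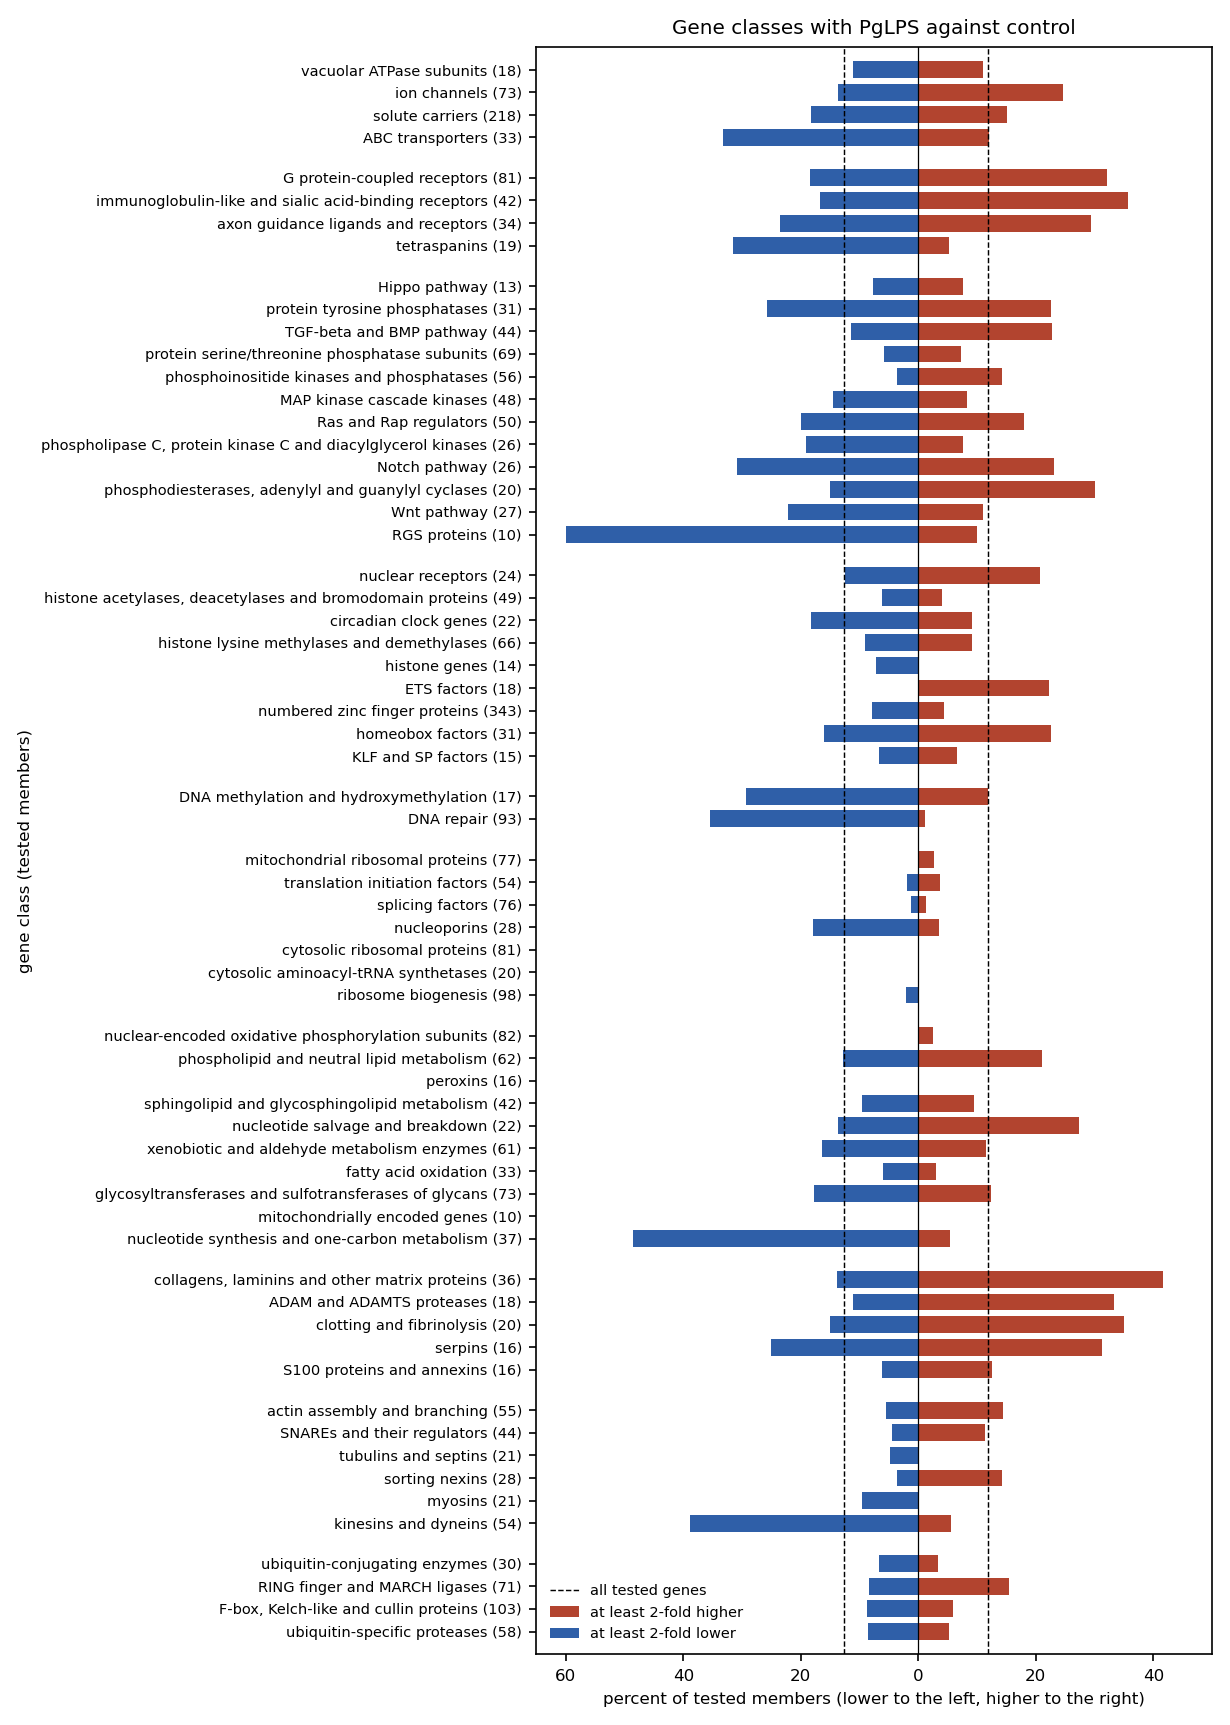
Share of tested members of the gene classes drawn at least 2-fold higher (red, to the right) or lower (blue, to the left) with PgLPS, with the number tested in brackets. Dashed lines mark the shares of all tested genes, 11.8% and 12.6%. RGS proteins and nucleotide synthesis enzymes reach farthest to the left, at 60% and 48.6%, and matrix proteins farthest to the right, at 41.7%.

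G protein-coupled receptors, which turn extracellular ligands into second messenger signals, were rearranged in both directions. Of 81 tested, 26 rose and 15 fell at least 2-fold (32.1% and 18.5%), with a median log2 change of 0.37. Library totals gave 19 and 23. The largest rise in the class was 7.77, and Fpr1 (8.24) and Fpr2 (7.96), given above, were not counted in it. The adenosine receptor Adora2a, which raises cyclic AMP, read 0.995, 0.653 and 1.17 CPM in control and 31, 39.4 and 38.6 CPM with PgLPS (5.27, SE 0.22, edgeR BH-adjusted p = 1.1e-13). Gpr18 read 0.995, 0.905 and 0.336 CPM against 24.2, 29.2 and 26.1 CPM (5.12, SE 0.24). Gpr31b rose by 5.10 (SE 0.27). The oxysterol receptor Gpr183, which positions immune cells in tissue, ran the other way, at 70, 68.2 and 70.8 CPM in control and 3.66, 5.13 and 5.28 CPM with PgLPS (-3.88, SE 0.11, edgeR BH-adjusted p = 1.8e-16). The ADP receptor P2ry1 (-2.56, SE 0.24) and Gpr176 (-2.12, SE 0.21) also fell. All 6 genes were separated between the groups in every library, as the naming rule required.

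Immunoglobulin-like and sialic acid-binding receptors, which hold activating and inhibitory members, were shifted toward rises. Of 42 tested, 15 rose and 7 fell at least 2-fold (35.7% and 16.7%, median 0.24). Library totals gave 13 and 8. Siglece, an inhibitory receptor for sialic acids, went from 3.14, 3.72 and 3.02 CPM to 263, 280 and 277 CPM (6.37, SE 0.10, edgeR BH-adjusted p = 3.5e-20). Pilra, an inhibitory receptor of the paired type, went from 14.2, 14.7 and 15.2 CPM to 335, 329 and 332 CPM (4.50, SE 0.07). Both inhibitory receptors were even across libraries of a group. Clmp, an adhesion molecule, rose by 6.19 (SE 0.31). Trem2, the receptor for lipids and cell debris that marks lipid-handling macrophages, read 952, 1141 and 1079 CPM in control and 325, 465 and 398 CPM with PgLPS (-1.42, SE 0.11, edgeR BH-adjusted p = 1.1e-09). The Fc receptor-like genes Fcrls (-1.44) and Fcrl1 (-2.20) fell with it.

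Tetraspanins, which organise membrane proteins into domains, leaned toward falls, with 1 of 19 higher and 6 lower at least 2-fold (5.26% and 31.6%, median -0.27). The riser was Cd82, at 35.8, 42.7 and 42.5 CPM in control and 106, 134 and 118 CPM with PgLPS (1.57, SE 0.09). Cd81 read 67.2, 76.8 and 78.3 CPM against 26.5, 26.2 and 25.4 CPM (-1.51, SE 0.08), and Tspan13 fell by 1.62 on the log2 scale. Tspan33 changed by -3.87, or -4.47 without PgLPS library 3, where it had the highest of the PgLPS levels, 0.6 CPM. Without PgLPS library 2 the number of rises was 2.

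Axon guidance ligands and receptors, which macrophages also use for migration and cell contact, moved both ways. Of 34 tested, 10 rose and 8 fell at least 2-fold (29.4% and 23.5%), and library totals gave 8 and 10. The 3 rises named by rule were semaphorins and the 3 falls semaphorin receptors, but other members of those families did not follow, such as Nrp2, which was picked after its value was seen and rose by 1.34. Sema4a read 22.8, 21.8 and 24.3 CPM in control and 186, 197 and 198 CPM with PgLPS (3.08, SE 0.08), Sema4c rose by 3.18 (SE 0.09) and Sema3c by 2.10 (SE 0.31). The co-receptor neuropilin Nrp1 read 338, 318 and 319 CPM and then 112, 94.1 and 105 CPM (-1.65, SE 0.07, edgeR BH-adjusted p = 2.3e-13). The plexin receptors Plxna2 (-1.71) and Plxnc1 (-1.56) fell to similar degrees.

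Ion channels set membrane potential and calcium entry. Of 73 tested, 18 rose and 10 fell at least 2-fold (24.7% and 13.7%, median 0.21), while library totals gave 14 and 14. Orai2, a subunit of store-operated calcium channels, went from 21.9, 19.9 and 18.7 CPM to 227, 209 and 219 CPM (3.44, SE 0.08, edgeR BH-adjusted p = 2.2e-17). The endolysosomal channel Mcoln2 went from 23.4, 22.1 and 21.8 CPM to 170, 159 and 158 CPM (2.85, SE 0.07). Another endolysosomal channel, Tpcn1, moved the other way, at 112, 114 and 111 CPM in control and 24.2, 26.6 and 23.8 CPM with PgLPS (-2.18, SE 0.07). The inward rectifier potassium channel Kcnj2 read 174, 156 and 146 CPM and then 26.4, 23 and 23.6 CPM (-2.71, SE 0.09). Every control library was above every PgLPS library for Tpcn1 and Kcnj2, and below for Orai2 and Mcoln2, a separation that the naming rule required. The voltage-gated potassium channel Kcnh4 rose by 3.42 (SE 0.33) and the calcium channel Cacna1a fell by 1.83 (SE 0.11).

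ABC transporters, which pump lipids and drugs with ATP, gave 4 rises and 11 falls of at least 2-fold among 33 tested (12.1% and 33.3%), and 2 and 12 with library totals. Yet the summed level of the class was higher, at 2963 to 3565 CPM with PgLPS against 2092 to 2181 CPM in control. Abca1, which exports cholesterol to apolipoprotein A-I, read 103, 87.6 and 85.5 CPM in control and 709, 514 and 659 CPM with PgLPS (2.77, SE 0.11, edgeR BH-adjusted p = 5.3e-14). Abcc5, an exporter of cyclic nucleotides, read 209, 189 and 184 CPM and then 903, 724 and 841 CPM (2.08, SE 0.10), and Abca7 rose by 1.07. Among the falls, the phospholipid transporter Abcb4 read 73.7, 65.6 and 63.5 CPM against 18.2, 16.6 and 12.7 CPM (-2.10, SE 0.11), with Abcg3 at -2.34 and Abca9 at -1.99. The larger family of solute carriers stayed nearer the background, with 33 rises and 40 falls among 218 tested (15.1% and 18.3%), or 24 and 61 with library totals.

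RGS proteins, which shut off G protein signals, showed the lowest median of the described classes, -1.38, with 6 of 10 lower and 1 higher at least 2-fold. Rgs2 read 238, 246 and 241 CPM in control and 18.8, 21.4 and 15.9 CPM with PgLPS (-3.69, SE 0.16, edgeR BH-adjusted p = 2.9e-13). Rgs1 read 229, 215 and 232 CPM and then 19.7, 20.4 and 21.2 CPM (-3.46, SE 0.09). These were abundant members, and the summed level of the class went from 732 to 768 CPM in control to 282 to 316 CPM. Rgs11 fell by 2.23 and Rgs14 rose from 27.2, 27.4 and 32.3 CPM to 73.3, 74.8 and 75.1 CPM (1.36, SE 0.08).

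Among phosphodiesterases and cyclases, which break down and make cyclic AMP and cyclic GMP, 6 of 20 rose and 3 fell at least 2-fold (30% and 15%). The cyclic AMP phosphodiesterase Pde4b read 7.7, 6.48 and 6.99 CPM in control and 157, 139 and 141 CPM with PgLPS (4.37, SE 0.10, edgeR BH-adjusted p = 7.3e-18). Pde5a, specific for cyclic GMP, rose by 2.82 (SE 0.27) and Pde7b by 2.13 (SE 0.13). The calcium-regulated Pde1c read 16.1, 12.3 and 15.4 CPM and then 1.22, 0.845 and 1.08 CPM (-3.80, SE 0.21). Pde3b (-1.61) and the adenylyl cyclase Adcy3 (-2.06) fell as well. Isoforms of the same enzyme family therefore moved in opposite directions. Lack of overlap between groups in the named members was required by the naming rule.

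The Notch pathway, in which a cleaved receptor acts as a transcription cofactor, changed in composition. Of 26 tested, 6 rose and 8 fell at least 2-fold (23.1% and 30.8%). The number of rises was 3 without PgLPS library 1 and 2 with library totals. The receptor Notch1 read 61.6, 53.9 and 52 CPM in control and 279, 177 and 253 CPM with PgLPS (2.08, SE 0.18, edgeR BH-adjusted p = 7.3e-09). Another receptor, Notch4, read 36, 31.5 and 36.5 CPM and then 3.51, 3.05 and 1.92 CPM (-3.64, SE 0.20). The 2 receptors thus moved in opposite directions. The ubiquitin ligase Dtx2 rose by 3.77 (SE 0.07). The gamma-secretase subunit Aph1c fell by 2.18 on the log2 scale, and the co-activator Maml3 changed by -3.17.

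Protein tyrosine phosphatases gave 7 rises and 8 falls among 31 tested (22.6% and 25.8%), with 3 rises under library totals. Ptpn1, which dephosphorylates cytokine receptor kinases, read 163, 169 and 164 CPM in control and 439, 459 and 455 CPM with PgLPS (1.44, SE 0.05). The receptor type Ptprj rose by 1.87 (SE 0.08) and Ptprm by 1.54 (SE 0.29). Ptpra, an activator of Src kinases, read 313, 294 and 288 CPM and then 87.9, 81.2 and 83.1 CPM (-1.83, SE 0.06, edgeR BH-adjusted p = 2.8e-15). Ptpn22, a regulator of immune receptor signals, fell by 1.98 on the log2 scale, and Eya1 changed by -2.23.

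**Figure D4:**
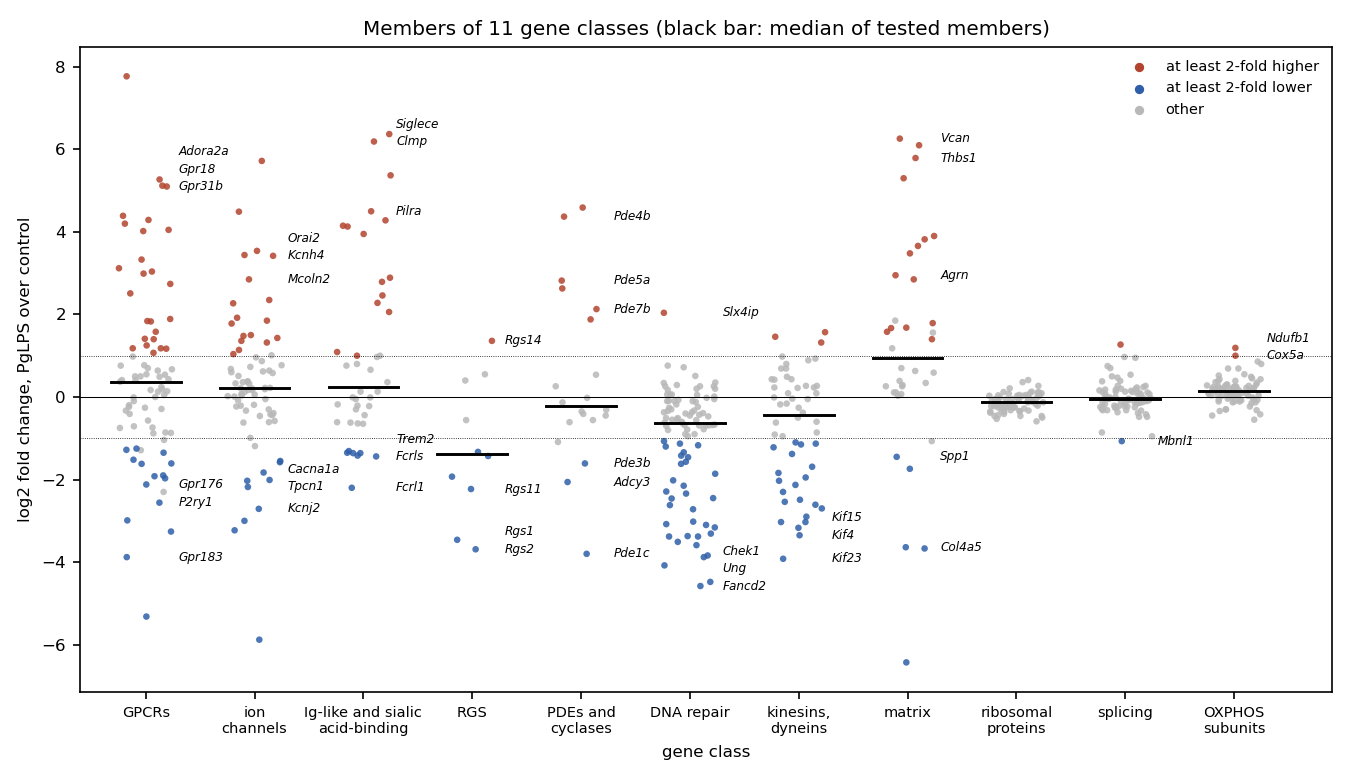
Log2 fold change, PgLPS over control, of tested members of 11 classes, 1 point per gene, red or blue where the change was called and at least 2-fold, with a black bar at the median. Names, placed to the right of each column at about the height of their points, mark members given in the text. The RGS median lies at -1.38 and that of the matrix class at 0.94, while ribosomal proteins stay between -0.59 and 0.41.

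Nuclear receptors, the ligand-gated transcription factors for lipids and hormones, were tested in 24 cases, with 5 rises and 3 falls of at least 2-fold (20.8% and 12.5%). Library totals gave 1 rise and 7 falls. The 2 lipid receptors best known in macrophages went opposite ways. Nr1h3, the oxysterol receptor LXR alpha that controls Abca1, read 37.4, 45 and 41.9 CPM in control and 194, 246 and 205 CPM with PgLPS (2.38, SE 0.12, edgeR BH-adjusted p = 2.4e-12). Pparg, the fatty acid receptor that controls Cd36, read 71.3, 77.8 and 72.9 CPM and then 5.87, 7.47 and 7.38 CPM (-3.41, SE 0.12, edgeR BH-adjusted p = 8.3e-15). Nr3c1, the glucocorticoid receptor, read 102, 88.3 and 87.6 CPM and then 246, 198 and 223 CPM (1.26, SE 0.09). Changes near the 2-fold line were called for Ppard (1.16), the retinoic acid receptor Rarg (1.26) and Esrra (1.02), which were rises, and for Nr4a1 (-1.19). Rora, an oxysterol-binding receptor of the clock, fell by 1.74 on the log2 scale.

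Circadian clock genes form a feedback loop of transcription factors and, like nuclear receptors, stayed too near the background to count among the 26. Of 22 tested, 2 rose and 4 fell at least 2-fold (9.09% and 18.2%, median -0.02), and library totals gave 1 and 8. Npas2, a partner of BMAL1 like CLOCK, read 8.23, 9.95 and 9.29 CPM in control and 1.3, 1.3 and 0.6 CPM with PgLPS (-3.12, SE 0.29). Bhlhe40, a repressor, read 44.3, 46.5 and 47.5 CPM and then 17.9, 15.3 and 16.7 CPM (-1.47, SE 0.09). Nfil3, a repressor also used in immune cells, rose from 6.86, 6.08 and 6.77 CPM to 34.6, 34.1 and 37.1 CPM (2.42, SE 0.12), and Cry2 rose by 1.01 (SE 0.14). Arntl2 was called lower at levels of 1.26, 0.603 and 0.336 CPM in control and 0.305, 0.26 and 0.06 CPM with PgLPS (-1.84, SE 0.68, edgeR BH-adjusted p = 0.024), but edgeR's BH-adjusted p was 0.16 without control library 1 and 0.11 without PgLPS library 3.

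DNA repair genes leaned toward falls, with 60 of 93 tested lower and 10 higher at any size. In all, 33 were lower and 1 higher at least 2-fold (35.5% and 1.08%), the median was -0.63, and library totals gave 49 and 1. Fancd2, the ubiquitin-activated protein of the Fanconi crosslink pathway, read 6.5, 5.48 and 5.93 CPM in control and 0.152, 0.26 and 0.3 CPM with PgLPS (-4.58, SE 0.36, edgeR BH-adjusted p = 1.5e-09). Ung, which cuts uracil from DNA, read 13.8, 13.4 and 12 CPM and then 1.07, 0.39 and 0.36 CPM (-4.48, SE 0.25, or -5.10 without PgLPS library 1). The checkpoint kinase Chek1 read 15.6, 14 and 12.3 CPM and then 0.991, 0.845 and 0.66 CPM (-4.08, SE 0.26). The exception was Slx4ip, a partner of the SLX4 nuclease scaffold, at 13.5, 13.2 and 10.7 CPM in control and 53.1, 48.1 and 52.6 CPM with PgLPS (2.04, SE 0.10).

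The enzymes that make DNA building blocks showed the same direction. Of 37 genes of nucleotide synthesis and one-carbon metabolism, 18 were lower and 2 higher at least 2-fold (48.6% and 5.41%), with a median of -0.90. Rrm2, the regulated subunit of ribonucleotide reductase, read 32.4, 35.6 and 30.3 CPM in control and 2.52, 1.56 and 2.22 CPM with PgLPS (-3.97, SE 0.17, edgeR BH-adjusted p = 1.1e-13). The dUTPase Dut read 21.8, 26.1 and 23 CPM and then 3.81, 2.01 and 2.94 CPM (-3.03, SE 0.18). Deoxycytidine kinase Dck, which phosphorylates salvaged deoxynucleosides, rose, with 68.1, 58.6 and 60 CPM in control and 249, 207 and 227 CPM with PgLPS (1.87, SE 0.08, edgeR BH-adjusted p = 5.9e-14).

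Nucleotide salvage and breakdown moved both ways, with 6 rises and 3 falls of at least 2-fold among 22 tested (27.3% and 13.6%). The median was -0.11, with 9 rises and 9 falls of any size, and library totals gave 6 and 5 of at least 2-fold. The class summed to 1292 to 1332 CPM in control and 3095 to 3214 CPM with PgLPS. Upp1, whose promoter is printed above, read 0.21, 0.201 and 0.448 CPM in control and 63.4, 58.2 and 69.3 CPM with PgLPS. The purine nucleoside phosphorylase Pnp read 13.6, 15.6 and 12.6 CPM and then 214, 229 and 208 CPM (3.96, SE 0.11, edgeR BH-adjusted p = 3.7e-16). Its close copy Pnp2 rose by 5.18 (SE 0.31), or 6.34 without control library 1. Hypoxanthine salvage by Hprt was lower, at 194, 198 and 200 CPM in control and 98.1, 95.2 and 89.2 CPM with PgLPS (-1.07, SE 0.07), and the uridine kinase Uck2 fell by 2.32 (SE 0.18).

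**Figure D5:**
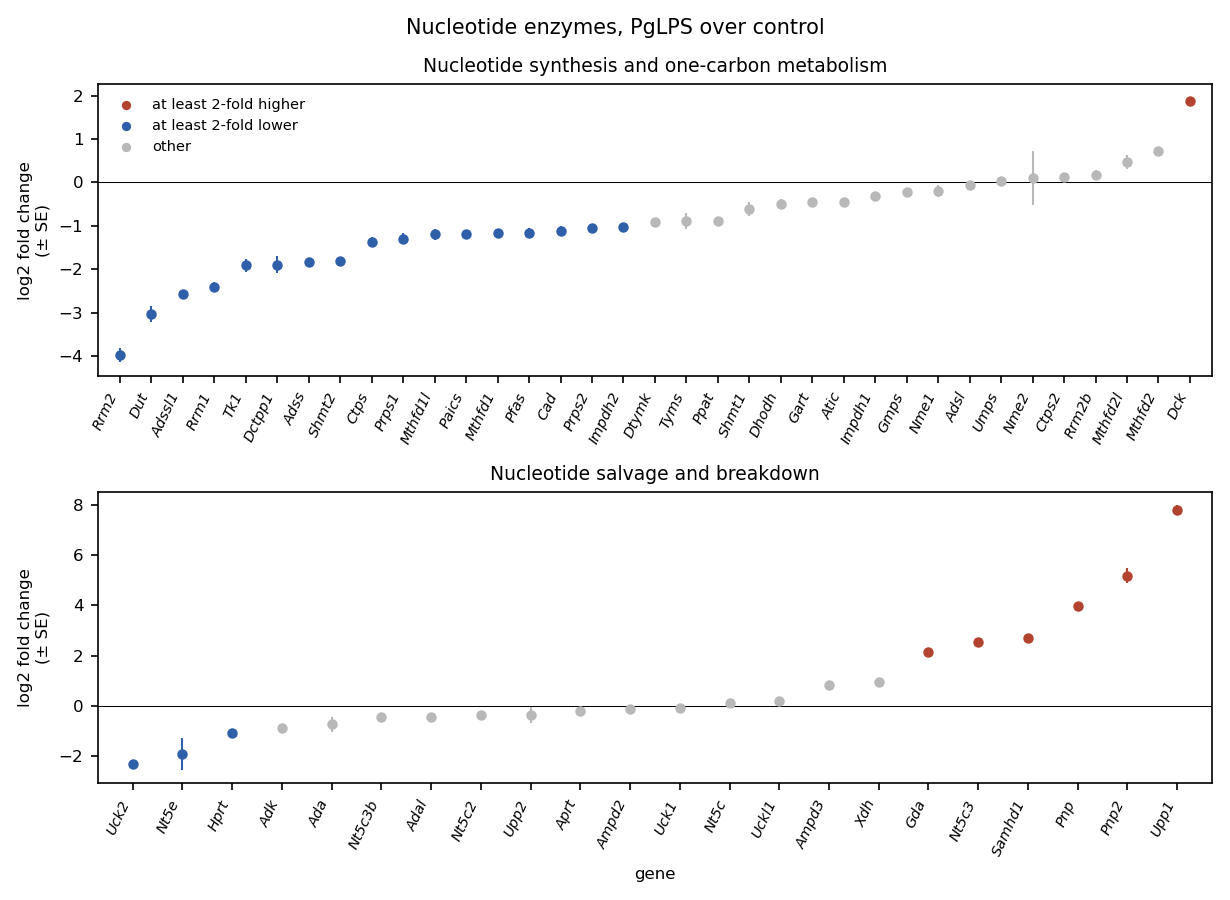
Log2 fold change, PgLPS over control, with its SE for genes of nucleotide synthesis and one-carbon metabolism (35, upper panel) and of nucleotide salvage and breakdown (22, lower panel), in order of change. Red and blue mark called changes of at least 2-fold. In the upper panel 17 genes are blue, down to Rrm2 at -3.97, and in the lower panel 6 are red, up to Upp1 at 7.78.

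Genes of DNA methylation moved both ways, with falls among those that maintain methylation. Of 17 tested, 5 were lower and 2 higher at least 2-fold (29.4% and 11.8%). Uhrf1, which brings the maintenance enzyme to replicated DNA, read 89.3, 95 and 79.7 CPM in control and 7.47, 6.04 and 5.88 CPM with PgLPS (-3.78, SE 0.11, edgeR BH-adjusted p = 4.5e-16). Dnmt1, the maintenance methyltransferase, read 245, 234 and 222 CPM and then 92.8, 81.6 and 93 CPM (-1.39, SE 0.07). Tet2, which oxidises methylcytosine, read 53.5, 41.3 and 37.5 CPM and then 131, 100 and 127 CPM (1.43, SE 0.14). Dnmt3l, a regulator of the de novo enzymes, rose by 3.44 (SE 0.24) from levels under 1 CPM, and the glycosylase Mbd4 fell by 1.30.

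Kinesins and dyneins, motors of transport and of the mitotic spindle, had 21 falls and 3 rises of at least 2-fold among 54 tested (38.9% and 5.56%, median -0.44). The named falls were spindle and cleavage motors. Kif23 read 15, 14.9 and 13.6 CPM in control and 1.14, 1.04 and 0.72 CPM with PgLPS (-3.92, SE 0.26, edgeR BH-adjusted p = 1.3e-10). Kif4 (-3.35, SE 0.34) and Kif15 (-3.03, SE 0.25) fell as well. The summed level of the class was nonetheless higher with PgLPS, at 2931 to 3287 CPM against 2381 to 2503 CPM.

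Against this movement, the core machinery of protein synthesis had few changes of 2-fold. Calls of any size were 32.2% rises and 31.6% falls over all tested genes. Among 81 cytosolic ribosomal proteins 0 changed at least 2-fold in either direction, and their log2 changes lay between -0.59 and 0.41 (3 rises and 29 falls of any size by edgeR). Cytosolic aminoacyl-tRNA synthetases likewise had 0 such changes among 20, with 6 rises and 9 falls of any size. Library totals gave 1 fall of at least 2-fold in each of these classes. Ribosome biogenesis had 2 falls among 98 (Dkc1 at -1.36 and Rrp1b at -1.02), with 1 fall without PgLPS library 1 or 2. Its median was -0.22, with 47 falls and 17 rises of any size, and library totals gave 12 falls of at least 2-fold. Mitochondrial ribosomal proteins had 2 rises among 77, Mrpl52 (2.46, SE 0.14) and Mrps18c (1.12, SE 0.23), and 1 without control library 1 or PgLPS library 2. With library totals they had 1 rise and 2 falls.

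Splicing factors and nuclear-encoded respiratory chain subunits also had few changes of 2-fold. Of 76 splicing factors, 1 rose and 1 fell at least 2-fold, the fall being Mbnl1, a regulator of developmental exons, at 689, 579 and 601 CPM in control and 324, 265 and 303 CPM with PgLPS (-1.07, SE 0.07). These counts ranged between 1 and 2 rises and 0 and 2 falls when 1 library was left out, and were 0 and 3 with library totals. Nuclear-encoded subunits of oxidative phosphorylation had 2 rises and 0 falls among 82, Ndufb1 (1.19, SE 0.13) and Cox5a, the latter at 21.2, 24.9 and 26.1 CPM in control and 42.4, 55.3 and 46.7 CPM with PgLPS, and 1 rise without control library 1 or PgLPS library 2. Their median was 0.15, with 25 rises and 5 falls of any size, and library totals gave 0 rises of at least 2-fold. Mitochondrially encoded genes took 1.69% ± 0.12 of control reads and 1.11% ± 0.047 of PgLPS reads, and 6 of 10 tested fell without any reaching 2-fold. With library totals, 4 of the 10 fell at least 2-fold.

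Genes of the extracellular matrix had the highest median of the described classes, 0.94, with 15 rises and 5 falls of at least 2-fold among 36 tested (41.7% and 13.9%). Thbs1, the adhesive glycoprotein thrombospondin, read 12.7, 14.9 and 14.7 CPM in control and 891, 563 and 893 CPM with PgLPS (5.79, SE 0.19, edgeR BH-adjusted p = 3.6e-15). Versican (Vcan), a large proteoglycan, read 0.891, 1.36 and 1.34 CPM and then 105, 75 and 97 CPM (6.26, SE 0.24), and agrin (Agrn) rose by 2.95 (SE 0.10). The basement membrane collagen Col4a5 read 15.2, 14.6 and 16.1 CPM and then 1.45, 1.49 and 0.78 CPM (-3.64, SE 0.21). All 4 were evenly expressed within a group compared with the gap between groups. Stromal markers, of which Col1a1, Col1a2 and Dcn are also in this class, were mixed. Col1a1 and Col1a2 varied widely among the PgLPS libraries. Pdgfrb, with 64, 41 and 57 reads against 1, 3 and 6 in control, did not. Nor did Dcn, at 9, 10 and 15 reads against 0, 3 and 0. The stromal markers summed to 0.472 to 2.71 CPM in control and 5.88 to 53.6 CPM with PgLPS, and all 4 tested markers were higher at least 2-fold. Col1a1 had 287, 57 and 18 reads in PgLPS libraries 1 to 3 and 6, 22 and 16 in control. Without PgLPS library 1, which had the most such reads, the class had 14 rises and 6 falls of at least 2-fold and a median 0.64 above that of all genes. The part of stromal cells in the remaining rises was not tested.

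Proteases and their inhibitors were redistributed as well. ADAM and ADAMTS proteases, which shed surface proteins and cut matrix, had 6 rises and 2 falls among 18 (33.3% and 11.1%, or 6 and 4 with library totals), among them Adam19 (2.92, SE 0.20), Adam33 (2.64, SE 0.18) and Adamts10 (-1.15, SE 0.08). Serpins, inhibitors of serine proteases, had 5 rises and 4 falls among 16 (31.2% and 25%). Besides Serpinb2, Serpinb8 rose from 34.8, 33.8 and 32.9 CPM to 117, 116 and 124 CPM (1.81, SE 0.07). Serpinb6b read 76.3, 78.4 and 71.5 CPM and then 6.17, 9.35 and 7.2 CPM (-3.31, SE 0.12), and Serpinb1c fell by 3.16.

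Clotting and fibrinolysis genes had 7 rises and 3 falls of at least 2-fold among 20 (35% and 15%, median 0.43), and library totals gave 3 and 5. The class summed to 3027 to 3177 CPM in control and 2917 to 3162 CPM with PgLPS. The rises named here, which the rule picked by size, included clotting factor genes. F10 read 19.1, 21.8 and 19.8 CPM in control and 305, 365 and 350 CPM with PgLPS (4.07, SE 0.10, edgeR BH-adjusted p = 1.6e-17), and F7 rose by 1.12 (SE 0.10). Procr, the receptor of anticoagulant protein C, rose from 23.4, 21.9 and 24.6 CPM to 222, 233 and 236 CPM (3.31, SE 0.09). Falls were called for Plau, given above, and for the TAM receptor ligand Gas6, which read 98, 126 and 129 CPM and then 16.2, 17.7 and 12.7 CPM (-2.92, SE 0.15).

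The remaining classes lay nearer the background. ETS factors had 4 rises and 0 falls among 18, TGF-beta and BMP pathway genes 10 and 5 among 44, homeobox factors 7 and 5 among 31, and phospholipid and neutral lipid enzymes 13 and 8 among 62. Wnt pathway genes had 3 rises and 6 falls among 27, and nucleoporins 1 and 5 among 28. Phosphoinositide kinases and phosphatases had 8 and 2 among 56, and actin assembly genes 8 and 3 among 55, with 35 rises of any size. With library totals falls outnumbered rises in several of these, at 2 rises and 3 falls for ETS factors, 6 and 8 for TGF-beta and BMP genes, 4 and 8 for homeobox factors, 8 and 15 for phospholipid and neutral lipid enzymes, 3 and 6 for phosphoinositide enzymes and 3 and 5 for actin assembly. Numbered zinc finger proteins had 15 and 27 among 343 (11 and 62 with library totals), fatty acid oxidation 1 and 2 among 33 (0 and 7), and peroxins 0 and 0 among 16. Ubiquitin-specific proteases had 3 and 5 among 58, and RING finger and MARCH ligases 11 and 6 among 71.

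Exons of 21 of the 173 genes named by rule or counted as switched on or off overlap those of another protein-coding gene in the GENCODE annotation, among them Adcy3, Pilra, Slx4ip, Kif4, Cp, Pnp and Pnp2. The labels state no strandedness, and the reads of such pairs cannot be told apart. Values of close copies, such as Pnp and Pnp2 or the Serpinb1 and Serpinb6 genes, are uncertain to the extent that reads were split between copies.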

How the data were processed

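RNA sequencing read counts per gene were used as deposited by the authors, whole numbers without normalization. A further 12 columns of FPKM values were not used. Per the submitters' processing notes, DESeq 1.30.0, HTSeq 0.9.1, HISAT2 2.0.5 and cutadapt 1.15 were used, in roles the notes leave unsaid. The genome build was not given in the sources used here, and no coordinates from the table are printed. Totals of 14992707 to 19252143 reads per library set the precision.

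All 12 libraries entered 1 fit of edgeR 4.0.16 in R 4.3.3 (group means, TMM, filterByExpr, quasi-likelihood test, BH adjustment over 11656 genes), tested first on simulated data. CPM divides each count by library total times TMM factor, and RPKM divides CPM by the deposited gene length in kilobases. Replicates of a group differed beyond sampling noise (chi-square per gene 2.78 to 18). Named genes were, outside the set aside list, the 12 largest log2 changes in each direction (at least 5 CPM in the higher group, 10 reads in the lower, no overlap), the 8 largest RPKM changes, up to 3 rises and 3 falls of each described class, and each nuclear receptor or clock gene called at 2-fold. The limits in brackets applied to the RPKM changes and class members as well, but not to nuclear receptors and clock genes. Members and lists were chosen with earlier results of these data known. Alternatives were library totals, RLE factors, DESeq2 1.42.0, other count filters, the 6 libraries alone, a replicate block, other limits for off and on, and leaving out each library. The rule named 155 genes, and a few of these and 1 class are not reported here.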

Additional observations from a re-analysis of the deposited data

How the results depend on the processing

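With library totals 1945 genes rose and 6963 fell, and 987 rises and 2455 falls reached 2-fold, against 1372 and 1468. Requiring at least 5 CPM on average left 919 falls of at least 2-fold. Leaving out each library in turn gave 3374 to 3653 rises, 3357 to 3620 falls, 1338 to 1382 rises and 1439 to 1479 falls of at least 2-fold. RLE factors, DESeq2, no filter and the 6 libraries alone stayed within 1.5 times the counts given in the report. Correlations between same-number libraries of the 2 groups were 0.0913, 0.132 and -0.0272, and those of other pairs ran from -0.19 to 0.108. With 3 libraries per group these values cannot show whether column numbers pair the libraries. A replicate block gave 3935 rises and 3874 falls, with 1382 and 1475 of at least 2-fold. Genes switched on numbered 54 and genes switched off 12 with a limit of 1 CPM for on, and 39 and 10 with a limit of 0.5 CPM for off. Lyz2 turned to -0.22 with library totals. Class medians relative to all genes that turned were nucleotide salvage (0.04 without a filter, 0.09 at 5 CPM), homeobox factors (0.10 at 5 CPM and -0.21 to 0.10 when 1 library was left out), ADAM and ADAMTS (-0.09), serpins (-0.02) and kinesins and dyneins (0.01), the last 3 at 5 CPM, where fewer genes are tested. Values of named genes kept direction and call in 1999 cases, and the call was lost in 2, both for Arntl2.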

Other observations

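The functional categories that the authors deposited with each gene, chosen for summary after the data were seen, were counted in the same way. Among 390 tested genes of extracellular structures 135 were higher and 60 lower at least 2-fold (34.6% and 15.4%), and among 157 defence genes 36 and 27. Replication, recombination and repair had 27 rises and 96 falls among 462 genes, and cell cycle and division 31 and 97 among 427. Amino acid metabolism had 48 and 61 among 316, and inorganic ion transport 73 and 69 among 410. RNA processing had 32 rises and 16 falls among 542 genes, and translation 27 and 26 among 574. With library totals, extracellular structures still had more rises than falls, 117 against 87, while RNA processing had 25 and 41, defence 31 and 41, translation 20 and 63, inorganic ion transport 52 and 110, amino acid metabolism 39 and 95, and replication, recombination and repair 17 and 149.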
